A study of Mus musculus with 6 samples.

Results

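The transcripts described here are those of 9 genes of the muscle cell membrane, the dystrophin-glycoprotein complex genes Dmd, Utrn, Dag1, Sgca, Sgcb, Sgcd and Sntb1 and the membrane repair and caveolar genes Dysf and Cav3. They were chosen by name, as every probe whose gene symbol in the deposited heart table was 1 of the 9. This gave 17 of the 25697 probes on the array, and 9 of its 18138 gene symbols. Hearts of male mice at postnatal day 6 on the FVB background (FVB/N in the methods) were compared, 3 from hSRY-ON and 3 from hSRY-OFF animals. All hSRY-ON mice carried a recombined Signalox-hSRY transgene, a single copy placed at the H11 locus on chromosome 11. In it the ubiquitous CAG promoter drives FLAG-tagged human SRY, the male sex-determining factor, together with EGFP through an IRES. Recombination was carried out by Cre from the oocytes of Ddx4-Cre mothers, so the transgene was activated in the single-cell embryo and not in cardiomyocytes alone. The paper reports SRY protein in brain, heart, lung and liver, and in cardiac nuclei except at apoptotic areas. It also describes slower growth of hSRY-ON pups than of their littermates, little suckling and stomachs without milk. White patches were seen on some hSRY-ON hearts. By the age sampled here, some hSRY-ON pups had died and growth was visibly retarded, so the hSRY-ON hearts came from survivors. The groups were matched for age, and no matching for growth or feeding is described. The part of growth, feeding and survival in the results was not tested. The hSRY-ON animals used for the arrays did not themselves carry Ddx4-Cre. For hSRY-OFF, the methods give the same transgene without recombination, in which a DsRed2 cassette between loxP sites separates SRY from the promoter. Elsewhere the controls are described as littermates that were non-transgenic or carried Ddx4-Cre, so whether the control hearts held the unrecombined transgene is not settled. The human transgene was not measured on this mouse array, and the group labels could not be checked against it here.

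Dystrophin, the product of Dmd, ties the actin cytoskeleton beneath the sarcolemma to a set of membrane proteins, and utrophin, from Utrn, is its autosomal homologue. Dag1 encodes both subunits of dystroglycan, which grips laminin outside the cell and dystrophin inside it, while the sarcoglycans hold the complex together in the membrane of striated muscle and the syntrophins are its signaling adaptors. Dysferlin patches tears in the membrane, and caveolin-3 builds the caveolae of muscle cells. Loss of several of them causes muscular dystrophies or cardiomyopathies in humans.

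The deposited value of a probe is its mean bead intensity on a linear scale, and it comes with a detection p-value against the negative control beads. At a detection p-value under 0.05, each array detected 47.2% to 51.3% of its probes. The third hSRY-OFF array was the dimmest, with a median intensity of 377.2 over its detected probes against 399.3 to 527.7 on the other 5. Arrays correlated at 0.983 to 0.992 within hSRY-OFF, at 0.985 to 0.988 within hSRY-ON and at 0.94 to 0.96 between the groups, and no pair held identical values. The labels do not say whether replicates came from separate litters, and p-values therefore measure only the spread between these hearts. Levels below are log2 intensities after background correction, an offset of 16 and quantile normalization, unless they are called deposited intensities.

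Of the 17 member probes, 13 were detected on at least 3 of the 6 arrays and were tested. The other 4, detected on no array, were both probes of Dmd and 1 each of Dysf and Sgcd. Of the 13 tested probes, 8 passed an adjusted p of 0.05 by limma (61.5%), 7 of them lower and 1 higher in hSRY-ON hearts. Over the whole array 27.5% of the 12970 tested probes passed, 13.7% lower and 13.8% higher. The log2 fold change, hSRY-ON minus hSRY-OFF, had a median of -0.61 over the 13 member probes and of -0.0046 over all tested probes. The 3 hSRY-ON hearts did not overlap the 3 hSRY-OFF hearts in 9 member probes, 8 of them lower, where 45.2% of all tested probes did not overlap, 21.6% lower and 23.6% higher. Taking the brightest tested probe for each gene, Sgca, Sgcb, Cav3 and Sntb1 fell and Sgcd rose, while Dysf, Dag1 and Utrn did not pass, and Dmd had no tested probe. In whole hearts, fewer cells of a type and less RNA per cell cannot be told apart.

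**Figure D1:**
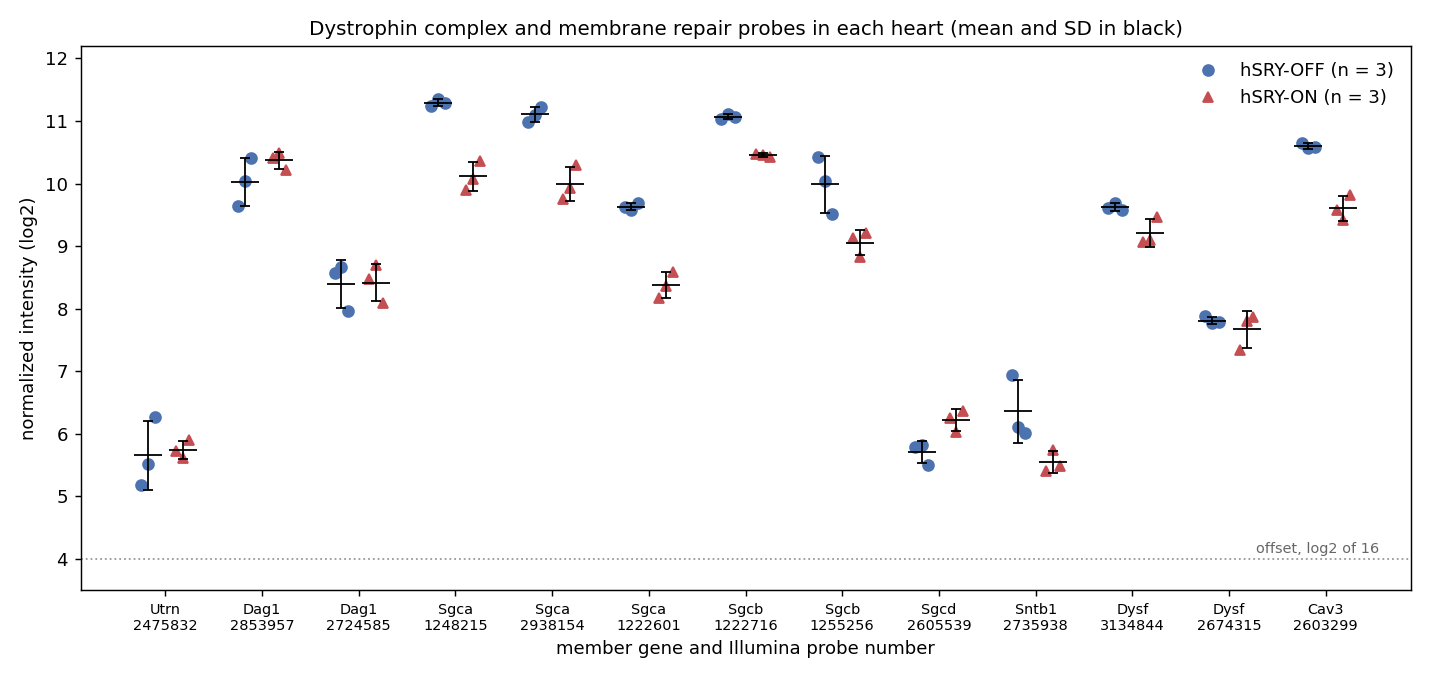
The normalized log2 intensity of the 13 tested member probes is plotted for each heart, circles for hSRY-OFF and triangles for hSRY-ON (3 hearts each), with the mean and SD in black; the dotted line is the offset of 16. The 3 probes of Sgca, the probe of Cav3 and both probes of Sgcb lie lower in all hSRY-ON hearts, and Utrn, Sgcd and Sntb1 lie nearest the offset.

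The upstream sequences of 3 members that fell are shown because they share a direction of change, and because SRY is a factor that binds DNA. They are the 250 bases before the RefSeq start of each gene (build GRCm38.p6), 5' to 3' on the strand of the gene, with E-boxes (CANNTG) in capitals. Sgca lies on the minus strand (chr11:94976328-94976577), Sgcb on the minus strand (chr5:73647738-73647987) and Cav3 on the plus strand (chr6:112459255-112459504).
Sgca: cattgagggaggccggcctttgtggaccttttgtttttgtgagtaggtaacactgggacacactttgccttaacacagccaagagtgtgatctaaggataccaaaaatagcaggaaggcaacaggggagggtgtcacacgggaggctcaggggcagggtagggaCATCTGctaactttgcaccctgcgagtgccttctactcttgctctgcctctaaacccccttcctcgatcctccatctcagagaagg
Sgcb: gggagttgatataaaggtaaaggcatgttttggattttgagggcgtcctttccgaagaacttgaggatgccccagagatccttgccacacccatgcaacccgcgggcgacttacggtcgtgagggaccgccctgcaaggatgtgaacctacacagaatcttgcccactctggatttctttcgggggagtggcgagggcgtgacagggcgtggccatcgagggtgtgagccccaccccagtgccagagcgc
Cav3: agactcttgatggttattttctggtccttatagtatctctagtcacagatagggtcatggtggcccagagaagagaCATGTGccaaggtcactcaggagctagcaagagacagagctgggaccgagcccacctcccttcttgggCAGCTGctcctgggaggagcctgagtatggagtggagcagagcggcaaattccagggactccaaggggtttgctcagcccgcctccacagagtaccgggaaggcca
Windows were at hand for 8 of the 9 members, 11 in all since Dmd, Dag1 and Dysf have a second start, and Sntb1 had none. On either strand, the SOX core AACAAT was in 0 of the 11 windows, where 9.42% of the 32851 windows of the mouse genes held it. Only AACAAT itself was sought, and in 11 windows a count of 0 cannot be told apart from that share. The related letters AACAAA were not counted, and the Sgca window above holds them on the other strand (TTTGTT). An E-box was in 7 of the 11 against 66.2% of all windows, starting 86 bases upstream in Sgca and 174 and 106 bases upstream in Cav3, with none in Sgcb. A GC box (GGGCGG) was in 6 against 32.7%, and the MCAT motif CATTCC was in 1, Sgcd, against 12.6%. The windows of Dag1 overlap and hold the same E-box and GC boxes, so the counts of both motifs take these sites more than once. A CArG box and a MEF2 site were each in 1 window, the first of Dmd, against 1.47% and 2.92% of all windows. These letters are a description of the windows only, and say nothing of where any factor binds.

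Sgca encodes alpha-sarcoglycan, found in skeletal and cardiac muscle. Its gene lies at chr11:94962777-94976327. The brightest of its 3 probes, ILMN_1248215, read 2893, 3357 and 2023 in deposited intensity in the hSRY-OFF hearts and 1012, 1220 and 1384 in the hSRY-ON hearts. After normalization the hSRY-OFF hearts stood at 11.25, 11.35 and 11.28 and the hSRY-ON hearts at 9.91, 10.08 and 10.37. Every hSRY-ON heart was below every hSRY-OFF heart, before and after normalization, and the SD was 0.05 in hSRY-OFF and 0.23 in hSRY-ON. Sgca thus fell by 1.18 on the log2 scale (SE 0.15, n = 3 and 3), to 44.2% of the control, with an adjusted p of 0.0013 by limma. ILMN_2938154 gave -1.12 (SE 0.16, adjusted p 0.0026 by limma) and ILMN_1222601 gave -1.26 (SE 0.14, adjusted p 0.00090 by limma). The third hSRY-ON heart was the highest of its group with all 3 probes.

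Sgcb encodes beta-sarcoglycan, the partner that assembles with delta-sarcoglycan as the core of the subcomplex, and is not restricted to muscle. It lies at chr5:73632749-73647737. With ILMN_1222716 the hSRY-OFF hearts stood at 11.03, 11.11 and 11.06 and the hSRY-ON hearts at 10.48, 10.46 and 10.42. These were the tightest groups of the 13 tested member probes, with SDs of 0.04 and 0.03, and they did not overlap. Sgcb fell by 0.61 on the log2 scale (SE 0.11), to 65.3% of the control, with an adjusted p of 0.0055 by limma, which became 0.106 when the arrays were not normalized to each other. The other probe, ILMN_1255256, stood at 10.42, 10.03 and 9.51 in hSRY-OFF and at 9.13, 8.83 and 9.20 in hSRY-ON. Its control hearts were spread over nearly a full log2 unit, the third being lowest, yet all lay above the hSRY-ON hearts. Its log2 fold change was -0.93 (SE 0.23, adjusted p 0.022 by limma), and the call held in 2 of the 6 fits that each left out 1 heart.

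Sgcd encodes delta-sarcoglycan, of striated and smooth muscle, and lies at chr11:46971077-47989451. The tested probe, ILMN_2605539, stood at 5.80, 5.82 and 5.50 in hSRY-OFF and at 6.26, 6.02 and 6.37 in hSRY-ON hearts. All 3 hSRY-ON hearts were higher, although the signal was close to background and the third hSRY-OFF heart missed detection with a p of 0.0539. In deposited intensity the same hearts read 207, 223 and 159 against 202, 197 and 207, and there the groups overlapped. Sgcd rose by 0.51 on the log2 scale (SE 0.15) with an adjusted p of 0.040 by limma. It was the member call most easily lost: it held in 4 of the 10 other settings that tested the probe with all 6 hearts, and in 1 of the 6 fits without a heart. The second probe, ILMN_2696134, was detected in no heart, and so gives no level against which to read the first.

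Sntb1 encodes beta-1-syntrophin, an adaptor that binds dystrophin, utrophin and the dystrobrevins, and lies at chr15:55636388-55907302. Its probe, ILMN_2735938, stood at 6.94, 6.12 and 6.02 in hSRY-OFF hearts and at 5.41, 5.75 and 5.49 in hSRY-ON hearts. The groups did not overlap, but the first hSRY-OFF heart stood well above the other two. In deposited intensity the hearts read 288, 239 and 173 against 171, 186 and 171, and there the groups overlapped. Sntb1 had a log2 fold change of -0.81 (SE 0.25, adjusted p 0.046 by limma), and the call was lost in 5 of the 6 fits that left out a heart, whichever group it came from. It was -0.51 without the first hSRY-OFF heart (adjusted p 0.0776). Across the other settings with all hearts it ranged from -1.15 to -0.27 and passed in 6 of 10.

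Cav3, at chr6:112459505-112472872, encodes caveolin-3, which binds the tail of dystroglycan and traffics dysferlin. Its single probe, ILMN_2603299, read 1985, 2016 and 1273 in deposited intensity in the hSRY-OFF hearts and 835, 815 and 975 in the hSRY-ON hearts. After normalization these were 10.65, 10.57 and 10.58 against 9.57, 9.42 and 9.82. The controls were nearly level (SD 0.04), the hSRY-ON hearts more spread (SD 0.20), and the groups far from touching. Cav3 had a log2 fold change of -0.996 (SE 0.14), or 50.2% of the control, with an adjusted p of 0.0020 by limma. The fall of Cav3, like those of the 3 Sgca probes, passed in all 11 other settings and in all 6 fits that left out a heart.

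Dysf, at chr6:84008361-84211060, encodes dysferlin. With ILMN_3134844 the hSRY-OFF hearts stood at 9.60, 9.70 and 9.58 and the hSRY-ON hearts at 9.06, 9.10 and 9.46. All hSRY-ON hearts were lower, the third by the least, but the log2 fold change of -0.42 (SE 0.14) had an adjusted p of 0.063 by limma and did not pass. It passed in 4 of the 11 other settings, those without background correction, with the other background correction, with an intensity trend and with array weights, and without the third hSRY-ON heart (-0.54, adjusted p 0.0252). ILMN_2674315 stood at 7.88, 7.77 and 7.79 against 7.33, 7.81 and 7.87. Here only the first hSRY-ON heart was below the controls, and the log2 fold change was -0.14 (SE 0.16, adjusted p 0.56 by limma, 95% interval -0.52 to 0.24). ILMN_3057828 was detected in no heart.

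Dag1, at chr9:108204861-108263977, was among the members that did not pass. With ILMN_2853957 the hSRY-OFF hearts stood at 9.64, 10.04 and 10.40 and the hSRY-ON hearts at 10.41, 10.48 and 10.22. The third hSRY-ON heart lay within the range of the controls, so the groups overlapped. This gave a log2 fold change of 0.35 (SE 0.20, adjusted p 0.24 by limma), with a 95% interval of -0.12 to 0.81. With array weights it was 0.56 and passed (adjusted p 0.0441), the only one of the 17 other fits in which it did. With ILMN_2724585 the control hearts stood at 8.57, 8.67 and 7.96 and the hSRY-ON hearts at 8.47, 8.69 and 8.10. The value of the third hSRY-OFF heart was the lowest with this probe and the highest of its group with the other. Here the log2 fold change was 0.02 (SE 0.23, adjusted p 0.96 by limma), with a 95% interval of -0.52 to 0.55. A fall of the size measured for Sgca lies outside the intervals of both Dag1 probes.

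Utrn, at chr10:12382187-12869888, was dim. Its probe, ILMN_2475832, stood at 5.19, 5.52 and 6.27 in hSRY-OFF and at 5.72, 5.62 and 5.90 in hSRY-ON hearts, and was not detected in the first hSRY-OFF heart. All hSRY-ON hearts lay inside the range of the controls. The log2 fold change was 0.09 (SE 0.26, adjusted p 0.83 by limma), and its 95% interval of -0.52 to 0.70 leaves a change of moderate size in either direction undetectable at this signal.

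Dmd, at chrX:82814664-85205050, gave no level. Probe ILMN_2672006 read 158, 159 and 137 in deposited intensity in hSRY-OFF hearts and 137, 144 and 147 in hSRY-ON hearts, with detection p-values of 0.320 to 0.845. Probe ILMN_2433876 read 144, 168 and 143 against 146, 139 and 137, with detection p-values of 0.243 to 0.898. Neither probe was above the negative control beads in any heart, and a fold change was not computed. Dmd makes several transcripts from separate promoters, and which of them these probes match was not analysed here, so the readings do not show that dystrophin RNA was absent. With no measured Dmd, genes of similar pattern were not sought for it.

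**Figure D2:**
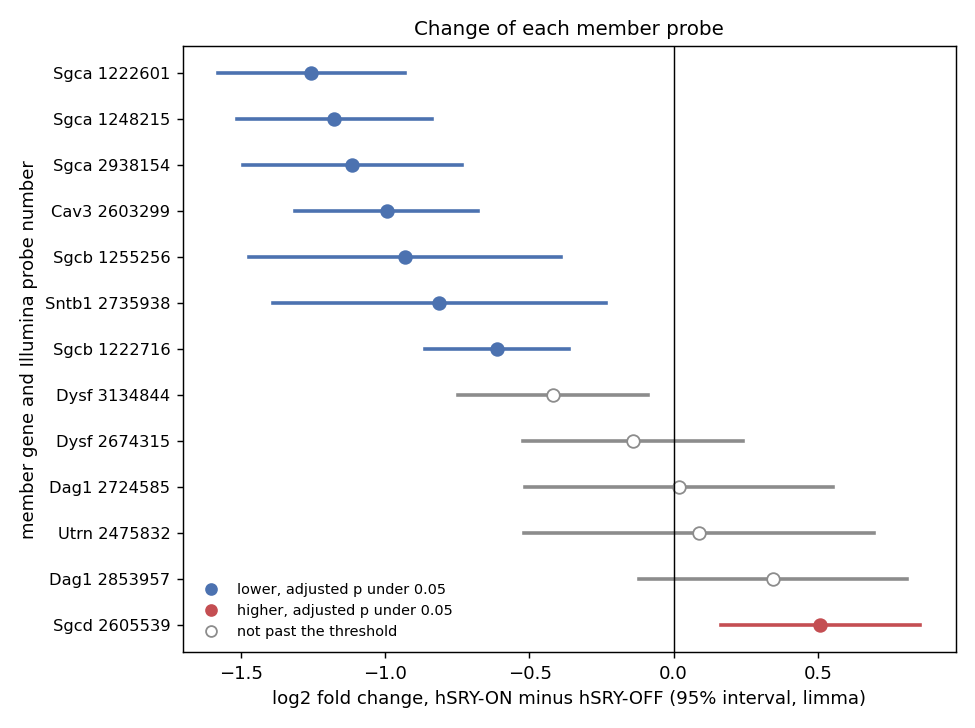
The log2 fold change, hSRY-ON minus hSRY-OFF, of the 13 tested member probes is drawn with its 95% interval, filled where the adjusted p was under 0.05. The 3 Sgca probes, from -1.26 to -1.12, and Cav3 at -0.996 lie farthest to the left, the Dag1 and Utrn intervals cross 0, and Sgcd alone is filled on the right at 0.51.

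Whether members changed by unequal amounts was asked of the difference between pairs of probes within each heart, which cancels the scaling of the array. Sgca minus Dag1 moved by -1.52 on the log2 scale between hSRY-OFF and hSRY-ON hearts, Cav3 minus Dag1 by -1.34 and Sgcb minus Dag1 by -0.96, and in each case the groups did not overlap. The Dag1 probe was ILMN_2853957, with a log2 fold change of 0.35. The other Dag1 probe, with 0.02, was not set against these genes and would give smaller gaps. Sgca ILMN_1248215 minus Sgcb ILMN_1222716 moved by -0.56, but the other Sgcb probe fell by 0.93 against 0.61 and was not set against Sgca. Cav3 minus Dysf moved by -0.58, again with no overlap. With 3 hearts in each group the smallest p that an exact two-sided permutation test allows is 0.1, which these 5 pairs reached, and 1 pair of probes of the same gene, Sgca ILMN_2938154 minus ILMN_1222601 (0.14), reached it too. Over the 13 pairs compared, the adjusted value of each of the 6 was 0.217, and no pair passed. Sgca minus Cav3 moved by -0.18 with overlapping groups (exact permutation p 0.2, adjusted 0.289). The other pairs of probes of the same gene overlapped in their differences, with exact permutation p-values of 0.3 and 0.4 for Sgca, 0.4 for Sgcb, 0.5 for Dag1 and 0.2 for Dysf.

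The other genes of the complex were described by a list of 11, of which 6 had a tested probe and 4 passed. Of these, 2 fell and 2 rose, the latter being both dystrobrevins, and the median log2 fold change of the 6 was 0.40. At this level, 28.8% of all 9550 tested genes passed, 13.9% lower and 14.9% higher. Dtnb, beta-dystrobrevin, better known from kidney and brain, stood at 6.59, 6.73 and 6.97 in hSRY-OFF and at 8.50, 7.55 and 7.72 in hSRY-ON hearts. All hSRY-ON hearts were above all hSRY-OFF hearts, and Dtnb rose by 1.16 (SE 0.25, adjusted p 0.012 by limma). Dtna, alpha-dystrobrevin of muscle, rose by 0.57 with its brightest probe (SE 0.15, adjusted p 0.028 by limma) and gave 0.46 with its other tested probe (adjusted p 0.075), and its call was lost in 4 of the 6 fits that left out a heart and without normalization between arrays (adjusted p 0.349). Sntb2 (0.38, adjusted p 0.31 by limma) and Sntg2 (0.42, adjusted p 0.33) did not pass, and Sgce, Sgcz, Sspn, Sntg1 and Nos1 were detected in no heart.

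Caveolin-3 works beside other coat proteins of caveolae, and all 7 of these had a tested probe, of which 3 fell and 1 rose, with a median of -0.37. Cavin4, the muscle cavin, listed on the array as 2310039E09Rik, stood at 10.52, 10.17 and 10.14 in hSRY-OFF and at 7.25, 7.83 and 8.15 in hSRY-ON hearts. This is a log2 fold change of -2.53 (SE 0.23, adjusted p 0.00049 by limma), the deepest fall in the lists described here. Cav1, caveolin-1 of endothelium, fibroblasts and fat, stood at 12.18, 12.32 and 11.69 against 10.47, 10.71 and 10.84, and fell by 1.39 on the log2 scale (SE 0.19, adjusted p 0.0020 by limma). Its partner Cav2 gave -0.97 (SE 0.11, adjusted p 0.0011 by limma). All hSRY-ON hearts were below all hSRY-OFF hearts for each of the 3. Prkcdbp, which encodes cavin-3, rose by 0.55 (SE 0.12, adjusted p 0.015 by limma) and by 0.65 with its second probe. Ptrf, the cavin needed to form caveolae in all cells, gave -0.13 (adjusted p 0.63 by limma), Sdpr gave 0.13 (adjusted p 0.47) and Pacsin3 gave -0.37 (adjusted p 0.14).

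Of 23 membrane repair genes other than Dysf and Cav3, 17 had a tested probe, 2 fell and 4 rose, and the median was 0.18. Trim72, the muscle protein MG53 that starts the repair patch, stood at 12.09, 12.26 and 12.42 in hSRY-OFF and at 10.91, 10.79 and 11.42 in hSRY-ON hearts. It fell by 1.22 on the log2 scale (SE 0.19, adjusted p 0.0033 by limma). The genes that rose are expressed in many cell types: the endocytic ATPase gene Ehd1 (0.83, SE 0.16, adjusted p 0.0082 by limma), the annexin genes Anxa5 (0.72, SE 0.13, adjusted p 0.0055) and Anxa2 (0.39, SE 0.11, adjusted p 0.039), and the ESCRT gene Chmp4b (0.54, SE 0.14, adjusted p 0.027). Smpd1, acid sphingomyelinase, fell with all 3 probes, by 0.43 with the brightest (SE 0.12, adjusted p 0.039 by limma). The calls of Anxa2 and Smpd1 were each lost in all 6 fits that left out a heart, and that of Chmp4b in 5 of them. Ahnak, a scaffold that binds dysferlin, gave 0.38 with its brightest probe (adjusted p 0.099 by limma), while its other probes rose by 1.21 and 1.09.

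The genes that act on dystroglycan from outside the complex had medians near 0. Of 18 genes that build its sugar chains, 16 had a tested probe and 2 passed, 1 lower and 1 higher, with a median of -0.03. Among these, Pomgnt2, listed on the array as C85492, rose by 0.65 (SE 0.14, adjusted p 0.012 by limma) with 2 of its 3 probes passing. Of 12 extracellular ligands, 7 had a tested probe, with 1 lower and 1 higher and a median of -0.03. Lamb2, the beta-2 chain of laminin, fell by 0.68 (SE 0.13, adjusted p 0.0092 by limma), and Bgn, the proteoglycan biglycan, rose by 0.76 (SE 0.11, adjusted p 0.0025 by limma). Lama2, whose laminin chain is the classic partner of dystroglycan in muscle, gave -0.30 (SE 0.14, adjusted p 0.15 by limma).

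Of 11 linkers beneath the membrane, 9 had a tested probe, 2 fell and 1 rose, with a median of -0.05. Ank2, the ankyrin-B that places dystrophin and ion transporters in cardiomyocytes, fell by 1.26 with its brightest probe (SE 0.14, adjusted p 0.00089 by limma), by 0.77 with another (adjusted p 0.019), and gave -0.54 with the last (adjusted p 0.13). Ank3, ankyrin-G, gave -0.63 (SE 0.18, adjusted p 0.036 by limma), and Synm, the intermediate filament protein synemin, gave 0.69 (SE 0.22, adjusted p 0.049 by limma). Of the tested probes, 1 of 2 passed for Ank3 and 1 of 3 for Synm. The call of Ank3 was kept in 2 and that of Synm in 1 of the 6 fits that left out a heart.

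**Figure D3:**
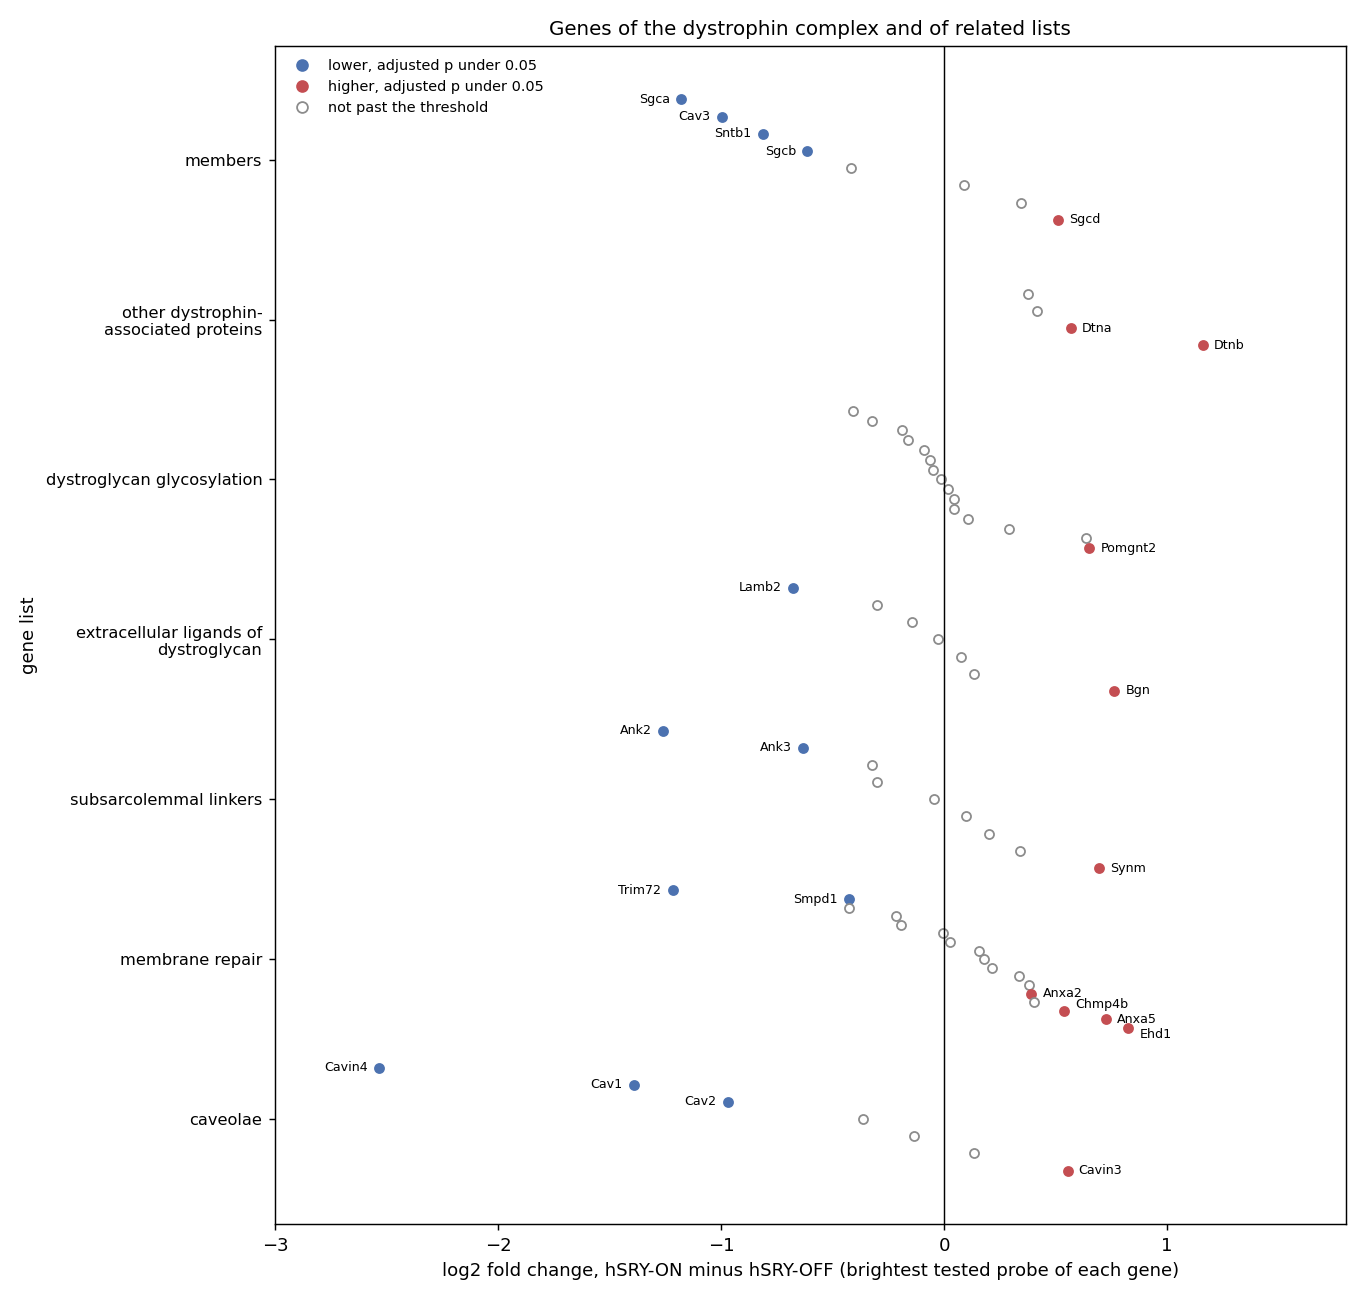
Each point is the log2 fold change, hSRY-ON minus hSRY-OFF, of 1 gene described here by its brightest tested probe, in 7 lists, filled and named where the adjusted p was under 0.05. Cavin4 at -2.53, Cav1, Ank2, Trim72 and Sgca lie on the left and Dtnb at 1.16 farthest to the right, while the glycosylation genes cluster near 0.

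Markers of several cell types differed between the groups as well, in both directions. Of 14 cardiomyocyte markers, 13 were tested and 12 were detected in all 6 hearts. Myh6, Tnni3, Mybpc3, Ryr2 and Pln fell and Myh7, the fetal ventricular myosin, rose by 2.94 on the log2 scale. The median was -0.21, and the other 7 were not called, among them Actc1, Myl2, Myl3, Actn2 and Ttn. Summed over the markers, the level ran from 250800 to 266200 in the controls and from 239500 to 258800 in hSRY-ON hearts, on the linear normalized scale. Much of that sum came from probes at the top of the scale: Myl2, Myl3 and Nppa stood at 15.25 to 15.42 in log2, where the highest value of any probe was 15.49, so the sum says little of their change. Without these 3, a choice made after seeing the data, the sum of the other 10 was 126600 to 139400 in hSRY-OFF hearts against 113600 to 129800. Of 11 skeletal muscle markers, 5 were tested, 4 were lower and 1 higher, and the summed level was 559.3 to 681 against 323.7 to 356.8, with Myh1, Myh2, Myh4, Tnnt3 and Myod1 detected in no heart. Of those tested, Tnni2 (-1.91), Myh8 (-1.42) and Myog (-0.56) fell, as did Pvalb, which was detected in no hSRY-ON heart, and Actn3 rose, detected in no hSRY-OFF heart. Macrophage markers were higher for 3 of 6 tested, with a sum of 1120 to 1234 against 1916 to 2616. Smooth muscle markers were higher for 2 and lower for 1 of 5, with a sum of 41230 to 48140 against 52000 to 56870. Most of the smooth muscle sum came from Acta2, at a mean of 14.74 in hSRY-OFF and 15.27 in hSRY-ON hearts. It therefore says little of the other markers, whose calls went in both directions. Myh11 gave -0.42 and did not pass (adjusted p 0.11 by limma). Among endothelial markers 2 of 6 fell and 2 rose (12850 to 13370 against 13480 to 15400), and among fibroblast markers 1 of 7 rose (31450 to 33730 against 28740 to 32070). Erythroid markers were lower for 1 of 5 and adipocyte markers higher for 2 of 4. Of 5 hepatocyte markers only Ttr was tested, and it was higher, with Alb and Serpina1a detected in no heart. Ttr and the macrophage marker Cd163 were, like Actn3, detected in no hSRY-OFF heart. Ttr, Cd163 and Actn3 passed the filter through the hSRY-ON hearts alone, and Pvalb through the hSRY-OFF hearts alone. The direction of their change was thus set by the filter, and the counts of lower and higher markers above include them. The part of cell makeup in the results was not tested.

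The members were also set against the median deviation of the 13 cardiomyocyte markers in the same heart. That deviation was 0.22, 0.22 and 0.04 in hSRY-OFF hearts and -0.20, -0.16 and 0.00 in hSRY-ON hearts. Relative to it, the 3 Sgca probes differed by -0.98 to -0.84, Cav3 by -0.72, and the Sgcb probes by -0.33 and -0.65, without overlap between the groups (exact permutation p 0.1 for each, the smallest possible). Sgcd differed by 0.79, also without overlap, while Sntb1 (-0.53), Dysf (-0.14 and 0.14), Dag1 (0.63 and 0.30) and Utrn (0.37) overlapped. Against the 10 markers without Myl2, Myl3 and Nppa, the same probes were free of overlap, with smaller differences of -0.84 to -0.70 for Sgca, -0.58 for Cav3, and -0.20 and -0.52 for Sgcb, and a larger one of 0.93 for Sgcd. The share of all tested probes free of overlap on these relative scales was not computed. Without the markers it was 45.2%, so freedom from overlap alone does not set these members apart from the array.

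The third hSRY-OFF array, the dimmest, did not carry the falls. Without it, 7 member probes passed, all lower, with log2 fold changes of -1.23 to -1.05 for Sgca, -1.002 for Cav3, and -0.61 and -1.17 for Sgcb. Sgcd then gave 0.42 with an adjusted p of 0.0783 by limma, and Dag1 ILMN_2853957 gave 0.53 with an adjusted p of 0.0566. Leaving out the other hearts in turn left 5 to 7 member probes called, 5 of them without the first or the second hSRY-OFF heart or without the first hSRY-ON heart.

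**Figure D4:**
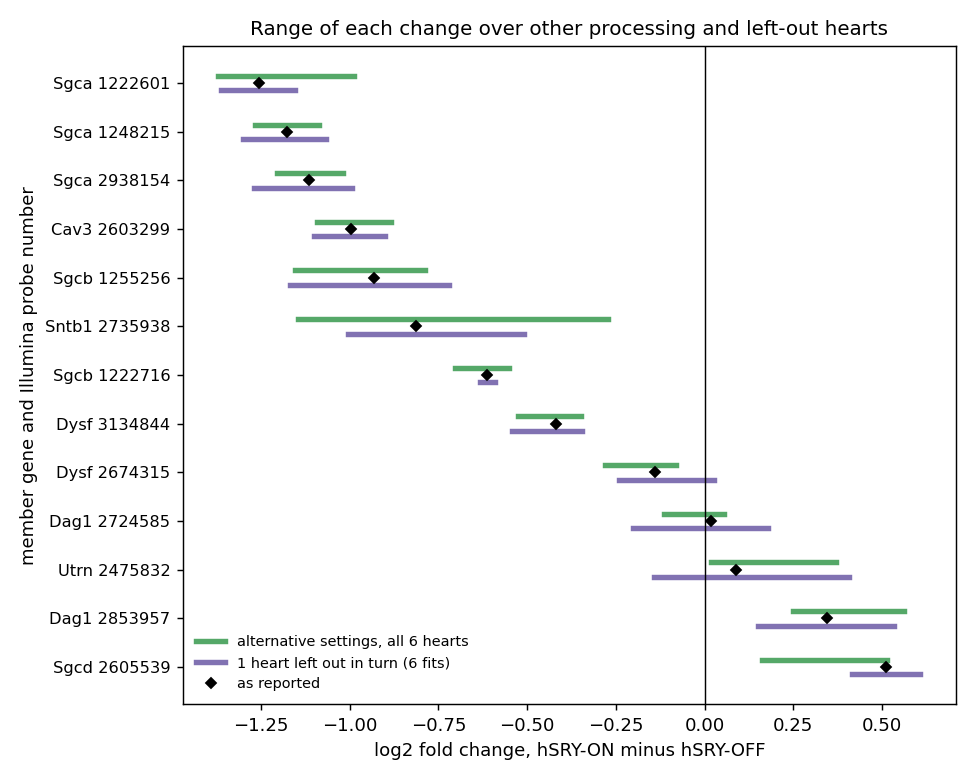
For each tested member probe the diamond is the reported log2 fold change, the upper bar its range over the other settings with all 6 hearts and the lower bar its range over the 6 fits that each left out 1 heart. The bars of Sgca, Sgcb, Cav3 and Sntb1 stay below 0 and those of Sgcd above it, while at least 1 bar each of Utrn, of Dag1 ILMN_2724585 and of Dysf ILMN_2674315 crosses 0.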

How the data were processed

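Total RNA of 6 hearts was hybridized by the authors, as biotinylated cRNA, to Illumina MouseRef-8 BeadChips. For each probe and heart the authors deposited a mean bead intensity that was not normalized, with its detection p-value. The methods name the package TCC and the submitters' processing notes name limma, both without settings, and software for summarising the beads is not given in the sources used here.

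Values were processed with R 4.3.3 and limma 3.58.1 as in neqc: normal-exponential background from the detection p-values, an offset of 16, quantile normalization and log2. Probes with a detection p-value under 0.05 on at least 3 arrays were fitted with lmFit and eBayes, with group as the only term, since TCC is made for counts. Adjustment of the two-sided p-values followed Benjamini and Hochberg over the 12970 probes tested, at 0.05. The brightest tested probe stood for a gene in lists. All member probes are named, the dystrophin-associated and caveolar genes, and from other lists up to 4 called genes in each direction, apart from some genes that are not reported here. Lama2, Ahnak, Acta2, Myh11, Ttr, Cd163 and the defining markers were named after their values were seen. The members and lists were chosen with earlier results of these data known. Coordinates and upstream sequences are those of RefSeq for GRCm38.p6. The steps were tested on simulated data. Other background corrections, normalizations, filters, variance models, array weights, a replicate block and leaving out each heart were tried. The number of arrays, 3 in each group, limits the precision, and slides or scan batches are not in the labels. The other organs of the study were not analysed here. Plots were made in Python 3.11.15 with matplotlib 3.10.9.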

Additional observations from a re-analysis of the deposited data

How the results depend on the processing

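Between 6 and 10 member probes passed in the other settings with all hearts, and 5 to 7 when 1 heart was left out, with the 3 Sgca probes and Cav3 lower in every one of these fits. Without normalization between arrays, the median over all probes shifted from -0.0046 to -0.12 on the log2 scale and 1897 probes passed in place of 3567, 61.5% of them lower against 49.9%. There, 0 glycosylation genes, 0 ligands, 1 linker and 1 membrane repair gene passed, against 2, 2, 3 and 6 in limma as reported; at an unadjusted p under 0.05, 3250 probes of the array passed against 5228. Array weights gave 4 glycosylation genes, and testing every probe gave 1 linker.

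No sign of pairing by replicate number was seen in the deviations of the hearts from their group means. Hearts with the same number correlated at -0.025, 0.038 and -0.066, and hearts with unlike numbers at -0.063 to 0.093. So few hearts cannot show whether litters or slides were shared. With the replicate number as a block, 2842 probes and 6 member probes passed, Sgcd (adjusted p 0.0892 by limma) and Sntb1 (0.0781) being lost, with 1 linker and 3 membrane repair genes. The block changed no count of the other lists.

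Leaving out 1 heart gave 2206 to 3669 probes, lowest without the first hSRY-OFF heart and 2255 without the first hSRY-ON heart. It gave 3 to 5 other dystrophin-associated genes, 2 or 3 glycosylation genes, 2 ligands, 1 to 3 linkers, 3 or 4 membrane repair genes and 3 to 5 caveolar genes.

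The sign turned for values that had not passed. Utrn gave -0.14 without the first hSRY-OFF heart, in a range up to 0.41 over the left-out hearts, and Dysf ILMN_2674315 gave 0.027 without the first hSRY-ON heart, in a range down to -0.24. Dag1 ILMN_2724585 gave -0.10 without normalization between arrays, -0.11 with array weights, -0.20 without the third hSRY-OFF heart, -0.0048 without the first hSRY-ON heart and -0.12 without the second, in a range up to 0.18. Ptrf gave 0.039 without the third hSRY-OFF heart, in a range down to -0.24. The cause was not tested. Signal over background limits Utrn, Sgcd and Sntb1, which lie near the offset, and Dmd, which lies at background.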
